A study of Mus musculus with 12 samples.

Results

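The heat shock chaperones are the proteins that hold, fold and refold other proteins when cells are stressed, and 10 of their genes were examined in the contused spinal cord of mice: Hspa1a, Hspa1b, Hspa4, Hspa8, Hsp90aa1, Hsph1, Dnajb1, Hspd1, Hspe1 and Bag3. They were chosen by gene symbol in the array's annotation, and for genes with several probe sets the brightest was used. Of the 10 genes, 9 had a probe set of their own, and Hspa1b had only a probe set listed for both Hspa1a and Hspa1b, so 10 of 19939 rows of values were read out. Whole-transcript arrays were compared from mice lacking interleukin-1 alpha (Il1a KO, 4 arrays), from mice lacking interleukin-1 beta (Il1b KO, 4 arrays) and from wild-type C57BL/6 mice (4 arrays). All 3 groups had C57BL/6 as the background strain, were aged 8 to 12 weeks and were injured with a contusion of 50 kdyn, and a cord segment of 6 mm around the lesion was taken 24 h later. Uninjured cord was not analysed here, so every value is a level in injured tissue and none shows the response to injury itself. Animals are not named in the labels, which give the arrays as biological replicates, so p-values rest on the differences among the arrays alone. Whether the controls were littermates, and which exons were deleted, are not given in the sources used here.

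In the heat shock response, heat shock factor 1 forms trimers that bind heat shock elements, inverted repeats of the letters GAA, and switches on chaperone genes. HSP70 proteins bind exposed stretches of unfolded clients, J-domain proteins such as Dnajb1 deliver the clients and trigger ATP hydrolysis, and HSP110 proteins and BAG proteins then release the nucleotide and with it the client. HSP90 takes over clients late in folding, and Hspd1 with its lid Hspe1 folds proteins inside mitochondria. Neurons are known for a weak induction of HSP70 under stress compared with glia.

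The arrays were alike as a whole, with medians between 7.67 and 7.72 on the log2 scale. Il1b averaged 6.42 ± 0.183 in the Il1b KO and 7.83 ± 0.161 in C57BL/6 mice, and Il1a averaged 4.97 ± 0.0749 in the Il1a KO, 5.10 ± 0.209 in the Il1b KO and 5.87 ± 0.232 in C57BL/6 mice (SD, n = 4 arrays each). Il1a thus fell in both knockouts (log2 difference -0.90 in the Il1a KO and -0.77 in the Il1b KO, limma adjusted p = 0.00372 and 0.0039), and between the Il1a KO and the Il1b KO it differed by -0.13 (limma adjusted p = 0.85), so its level does not tell the knockouts apart. Defining markers of the cord were bright on all 12 arrays, with log2 values of 13.36 to 13.51 for the neuronal gene Snap25, 12.75 to 12.90 for the myelin gene Mbp and 12.52 to 12.73 for the astrocyte gene Gfap. A pair of arrays stood apart and was left out together in a later fit. Il1a KO replicate 1 had a log2 value of 6.47 for Xist, against 11.89 to 12.19 on the other arrays, and 9.15 for the Y-linked Eif2s3y, against 3.65 to 3.94. C57BL/6 replicate 1 lay at the end of the first principal component (score -20.2, with the other arrays between -6.58 and 13.6). On the second component C57BL/6 replicate 3 was lowest (score -13.78, with the next array at -5.59), and it was not part of that pair. In bulk tissue, fewer cells of a type and less RNA per cell cannot be told apart.

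No heat shock chaperone passed the test in any comparison. By limma with Benjamini-Hochberg adjustment over all 19939 rows, 0 of 10 passed in the Il1a KO against C57BL/6 (background 0.171% of rows), 0 of 10 in the Il1b KO against C57BL/6 (background 0.812%) and 0 of 10 between the knockouts (background 0.652%). At an unadjusted p under 0.05 the counts were 0 of 10 in the Il1a KO (background 8.31%), 3 of 10 in the Il1b KO (background 13%, 2593 of 19939) and 2 of 10 between the knockouts (background 7.79%). The median log2 difference of the 10 members was -0.011 in the Il1a KO and 0.010 in the Il1b KO, against medians over all rows of 0.000 and 0.004. These medians against C57BL/6 had no settled sign. The first was 0.001 with the arrays centred on their medians, and the second was -0.023 without C57BL/6 replicate 1. For the Il1a KO minus the Il1b KO the members' median was -0.034, against -0.004 over all rows. This median stayed between -0.043 and -0.024 over 21 alternative fits. In that comparison 7 of 10 members had a negative difference, as had 10498 of 19939 rows. With Il1a KO replicate 1 and C57BL/6 replicate 1 both left out, 0 of 10 members passed in either knockout against C57BL/6. The measurements of the brightest probe sets were tight enough to bound their differences. Over the members, the 95% intervals, each for its own gene, ran from -0.18 to 0.17 in the Il1a KO, so a difference above 1.13-fold on this array scale lay outside all of them. In the Il1b KO they ran from -0.21 to 0.29, which corresponds to 1.22-fold at most, and between the knockouts from -0.23 to 0.18, or 1.17-fold at most. These bounds do not cover the other probe sets of the same genes. The dimmer Hspd1 set differed by -0.12 in the Il1a KO and -0.10 in the Il1b KO (SD 0.161 in C57BL/6). A p that misses the threshold does not show that the genotypes have the same level, and summarised array values compress fold changes.

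**Figure D1:**
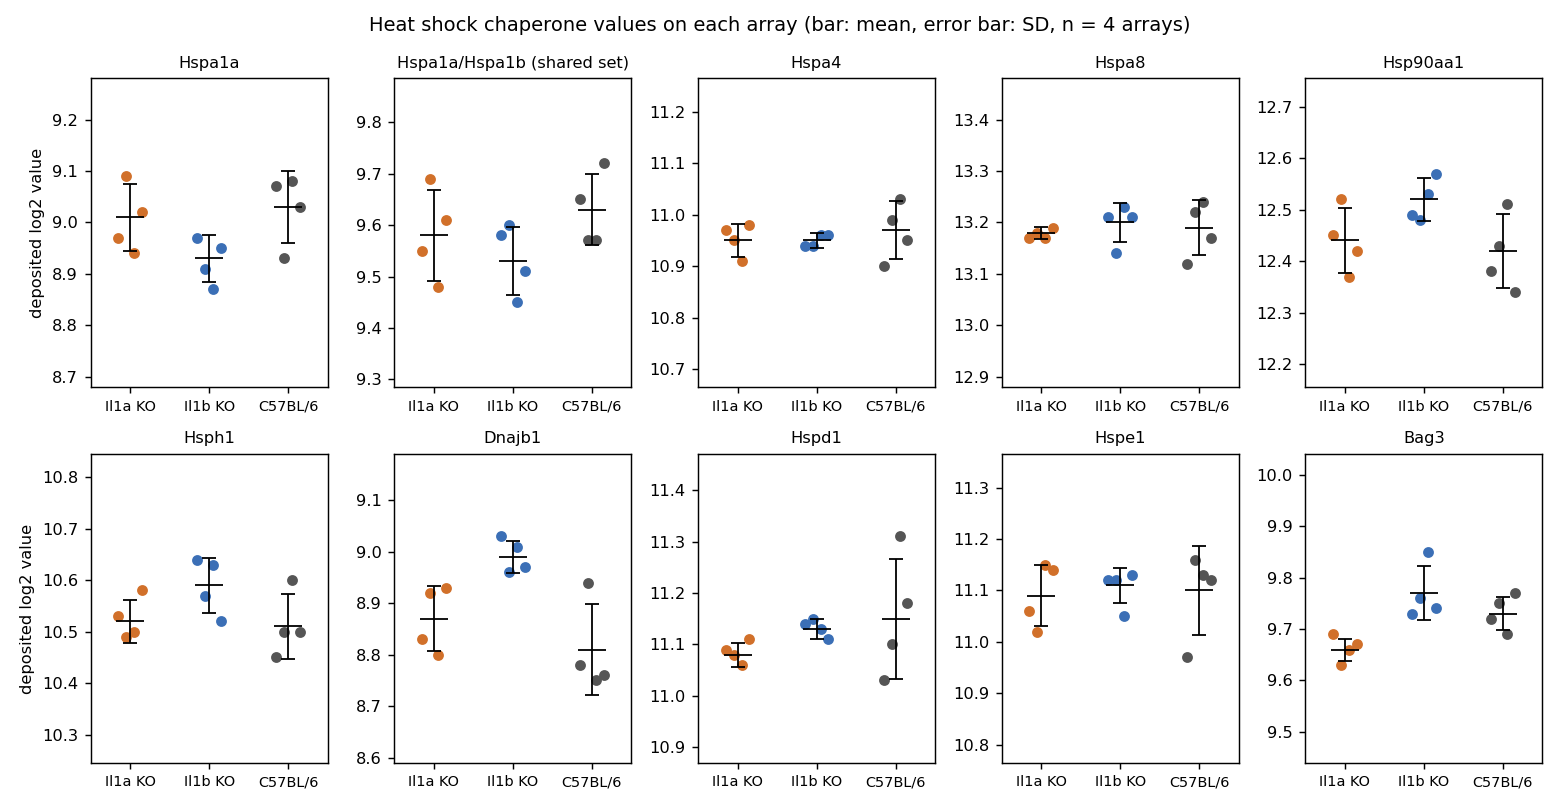
Deposited log2 values of the 10 heat shock chaperone rows on each of 12 arrays, 1 panel a gene, each y axis covering the same width in log2 units, for the Il1a KO, the Il1b KO and C57BL/6 mice. Points are arrays, the horizontal bar is the mean and the error bar the SD (n = 4); Dnajb1 in the Il1b KO (8.96 to 9.03) lies above all C57BL/6 arrays (8.75 to 8.94), while Bag3 in the Il1a KO (9.63 to 9.69) lies below all of them (9.69 to 9.77), its highest array by less than the rounding.

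The stress-inducible HSP70 genes come first by role. Hspa1a and Hspa1b are neighbouring copies on mouse chromosome 17 that encode nearly the same protein and are almost silent in unstressed tissue, and the array could not fully separate them. The sequences 250 bases before their annotated starts are shown because they are close to identical and hold the same heat shock letters. They are from RefSeq in GRCm38.p6, both on the minus strand, at chr17:34972157-34972406 for Hspa1a and chr17:34959239-34959488 for Hspa1b, and capitals mark a pair of inverted repeats (GAANNTTC or TTCNNGAA, each of which reads the same on both strands).
Hspa1a: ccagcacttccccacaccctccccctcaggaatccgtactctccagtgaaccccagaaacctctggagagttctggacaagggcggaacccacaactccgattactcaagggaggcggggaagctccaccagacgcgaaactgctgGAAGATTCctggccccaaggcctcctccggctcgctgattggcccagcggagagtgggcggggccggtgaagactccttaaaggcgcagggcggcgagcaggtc
Hspa1b: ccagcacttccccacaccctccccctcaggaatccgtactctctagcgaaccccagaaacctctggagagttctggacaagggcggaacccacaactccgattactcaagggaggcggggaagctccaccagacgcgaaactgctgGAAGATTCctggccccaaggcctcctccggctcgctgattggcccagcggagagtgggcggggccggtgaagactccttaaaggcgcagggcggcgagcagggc
Of the 250 bases, 247 were identical and 3 differed. In each sequence the marked letters begin 104 bases before the start.

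Hspa1a had log2 values of 8.97, 9.09, 8.94 and 9.02 in the Il1a KO, 8.97, 8.91, 8.87 and 8.95 in the Il1b KO, and 9.07, 8.93, 9.08 and 9.03 in C57BL/6 mice. The 3 groups overlapped, although all 4 Il1b KO arrays lay below the C57BL/6 mean. The log2 difference was -0.023 in the Il1a KO (95% interval -0.12 to 0.078, limma adjusted p = 0.971) and -0.10 in the Il1b KO (-0.20 to -0.00037, unadjusted p = 0.0493, limma adjusted p = 0.382). The probe set listed for both copies had values of 9.55, 9.69, 9.48 and 9.61 in the Il1a KO, 9.58, 9.60, 9.45 and 9.51 in the Il1b KO, and 9.65, 9.57, 9.57 and 9.72 in C57BL/6 mice. It overlapped between the groups as well, with log2 differences of -0.047 in the Il1a KO (limma adjusted p = 0.914) and -0.093 in the Il1b KO (limma adjusted p = 0.49). Since it is listed for both copies, it gives no separate value for Hspa1b. The 2 probe sets were compared over the 12 arrays in a family of 2 pairs of rows, chosen with the values known. They varied together (Pearson r = 0.74, permutation p = 0.00654, adjusted 0.0131; Spearman rho = 0.67, permutation p = 0.0205, adjusted 0.041). Because the shared set is listed for Hspa1a too, this does not show that 2 genes vary together. The permutations also moved arrays across genotypes. Without the 2 arrays farthest from the median r was 0.67, and with group means removed it was 0.65.

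Hspa8, also known as Hsc70, is the constitutive HSP70 of the cytosol, abundant in neurons and needed to uncoat clathrin-coated vesicles. From the lowest to the highest of the 12 arrays it spanned 1.08-fold, the narrowest range among the members. Its values were 13.17, 13.18, 13.17 and 13.19 in the Il1a KO, 13.21, 13.14, 13.23 and 13.21 in the Il1b KO, and 13.12, 13.22, 13.24 and 13.17 in C57BL/6 mice. Both knockouts lay inside the C57BL/6 range. The log2 difference was -0.0084 in the Il1a KO (95% interval -0.089 to 0.073, limma adjusted p = 0.992) and 0.010 in the Il1b KO (-0.071 to 0.091, limma adjusted p = 0.94). A further 2 probe sets of Hspa8 gave differences between -0.04 and 0.01 in the knockouts.

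The HSP110 proteins are relatives of HSP70 that act on it as nucleotide exchange factors, and Hspa4 and Hsph1 encode a pair of them. Hspa4 had values of 10.97, 10.95, 10.91 and 10.98 in the Il1a KO, 10.94, 10.94, 10.96 and 10.96 in the Il1b KO, and 10.90, 10.99, 11.03 and 10.95 in C57BL/6 mice. All knockout arrays lay inside the C57BL/6 range, and the log2 differences were -0.013 in the Il1a KO and -0.016 in the Il1b KO (limma adjusted p = 0.985 and 0.889). Hsph1, the heat-inducible HSP110, had values of 10.53, 10.49, 10.50 and 10.58 in the Il1a KO, 10.64, 10.57, 10.63 and 10.52 in the Il1b KO, and 10.45, 10.50, 10.60 and 10.50 in C57BL/6 mice. In the Il1b KO all 4 arrays lay above the C57BL/6 mean, but the groups overlapped and the log2 difference of 0.077 (95% interval -0.017 to 0.17) did not pass (limma adjusted p = 0.487). The difference in the Il1a KO was 0.011 (limma adjusted p = 0.989).
The sequence before the Hsph1 start is shown for its heat shock letters (RefSeq, GRCm38.p6, minus strand, chr5:149636316-149636565), which lie close to the start, with a pair of inverted repeats in capitals.
Hsph1: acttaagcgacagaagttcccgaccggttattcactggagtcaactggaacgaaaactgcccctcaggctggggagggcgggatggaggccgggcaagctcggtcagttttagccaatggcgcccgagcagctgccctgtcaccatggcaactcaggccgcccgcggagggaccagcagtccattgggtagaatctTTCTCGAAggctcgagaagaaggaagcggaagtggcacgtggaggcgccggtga
Here the marked letters begin 54 bases before this start, and 33 bases before a further annotated start.

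Hsp90aa1 encodes the inducible cytosolic HSP90, which matures kinases and steroid receptors. Its values were 12.45, 12.52, 12.37 and 12.42 in the Il1a KO, 12.49, 12.48, 12.53 and 12.57 in the Il1b KO, and 12.38, 12.43, 12.51 and 12.34 in C57BL/6 mice. All Il1b KO arrays lay above the C57BL/6 mean, and C57BL/6 replicate 3 reached into their range. The log2 difference in the Il1b KO was 0.10 (95% interval 0.00046 to 0.20, unadjusted p = 0.0491, limma adjusted p = 0.382), and in the Il1a KO it was 0.027 (limma adjusted p = 0.963). Its other 2 probe sets gave 0.08 and 0.09 in the Il1b KO and correlated with the brightest over the 12 arrays with r of 0.94 and 0.99. With probe sets averaged the difference was 0.088 and no longer under 0.05 before adjustment (limma unadjusted p = 0.0756). Its size thus changed little with the probe set, while its side of that limit did change. Hsp90ab1, the constitutive form, was not analysed here.

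Dnajb1, the J-domain protein that feeds clients to HSP70 and helps it break up protein aggregates, showed the largest difference among the members. It had log2 values of 8.83, 8.92, 8.80 and 8.93 in the Il1a KO, 9.03, 8.96, 9.01 and 8.97 in the Il1b KO, and 8.78, 8.94, 8.75 and 8.76 in C57BL/6 mice. Every Il1b KO array lay above every C57BL/6 array and above every Il1a KO array. The log2 difference between the Il1b KO and C57BL/6 was 0.18, or 1.14-fold (SE 0.049, 95% interval 0.078 to 0.29, unadjusted p = 0.00241), and it did not pass over all rows (limma adjusted p = 0.126). Of the 10 members, 1 (Dnajb1) lay above C57BL/6 without overlap in the Il1b KO, where 5.06% of all rows did so, and 0 lay below, where 1.94% did so (7.0% in either direction). C57BL/6 replicate 2 (8.94) stood apart from the other C57BL/6 arrays (8.75 to 8.78), and without it the difference was 0.23 and passed (limma adjusted p = 0.0303). Weighting the arrays by their quality also brought it past the threshold (0.21, limma adjusted p = 0.0227). Over all rows, 1145 passed with array weights and 177 without C57BL/6 replicate 2, against 162 in the main fit. In the other 19 of 21 alternative fits Dnajb1 did not pass (limma adjusted p up to 0.329). In the Il1a KO the difference was 0.064 (95% interval -0.042 to 0.17, limma adjusted p = 0.84), and between the Il1a KO and the Il1b KO it was -0.12 (unadjusted p = 0.0288, limma adjusted p = 0.562).

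Marker levels of the cell types are given beside the Dnajb1 difference, as log2 means over each list on each array. Markers of mature oligodendrocytes ranged from 11.47 to 11.63 in the Il1b KO and from 11.38 to 11.53 in C57BL/6 mice (mean over the 7 of 8 markers measured). Neutrophil markers ranged from 7.19 to 7.97 in the Il1b KO and from 7.71 to 8.06 in C57BL/6 mice (9 of 9 measured). Skeletal muscle markers ranged from 6.84 to 7.03 in the Il1b KO and from 6.93 to 7.43 in C57BL/6 mice (8 of 8 measured). Of neuron markers (9 of 9 measured), the ranges were 11.60 to 11.68 in the Il1b KO and 11.59 to 11.65 in C57BL/6 mice. Of the neutrophil list, 1 of 9 markers (Ly6g) passed as lower in the Il1b KO (limma adjusted p = 0.00869, background 0.812% of rows). In this list 7 of 9 had a negative difference and 2 a positive one (median -0.25). All 7 oligodendrocyte markers had a positive difference (median 0.124), and all 8 muscle markers a negative one (median -0.22). Of the neuron markers 5 of 9 were positive (median 0.037), as were 10358 of 19939 rows. The part of these lists in the Dnajb1 difference was not tested.

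**Figure D2:**
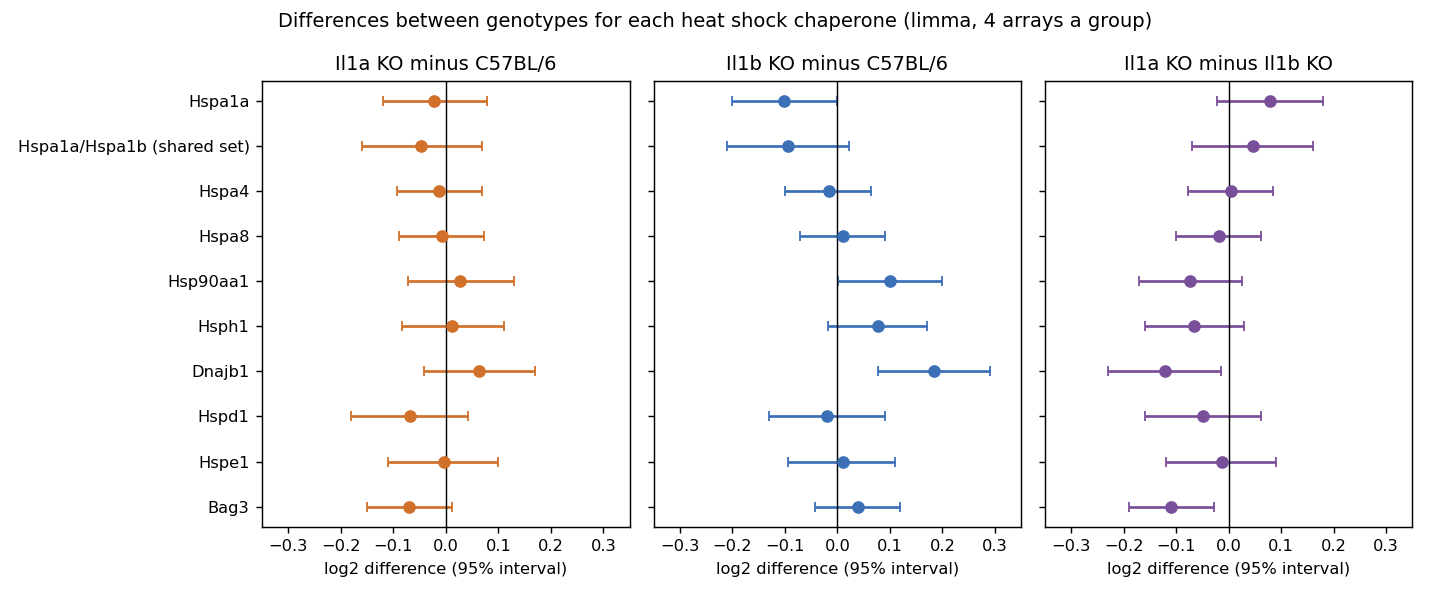
Log2 differences with 95% intervals for the 10 heat shock chaperone rows in 3 comparisons (x axis, log2 difference of the first named group minus the other; y axis, member; limma, 4 arrays a group). The Il1a KO intervals all include 0, Dnajb1 in the Il1b KO (0.18) is farthest from it, and 0 of 30 values pass after adjustment over all rows.

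Bag3, a nucleotide exchange factor of HSP70 that routes clients to autophagy together with the small chaperone Hspb8, was the member with every Il1a KO array below the C57BL/6 mean and every Il1b KO array above it. Its values were 9.69, 9.63, 9.66 and 9.67 in the Il1a KO, 9.73, 9.76, 9.85 and 9.74 in the Il1b KO, and 9.72, 9.75, 9.69 and 9.77 in C57BL/6 mice. All Il1a KO arrays lay below all C57BL/6 arrays, though the nearest differed by less than the rounding, and all Il1a KO arrays lay below all Il1b KO arrays. The log2 difference was -0.07 in the Il1a KO (95% interval -0.15 to 0.011, limma adjusted p = 0.687) and 0.039 in the Il1b KO (limma adjusted p = 0.706). Over 21 alternative fits the Il1b KO value ranged from 0.004 to 0.052. Between the Il1a KO and the Il1b KO it was -0.11 (95% interval -0.19 to -0.028, unadjusted p = 0.0119), which did not pass over all rows (limma adjusted p = 0.412). Of the 10 members, 1 (Bag3) lay below C57BL/6 without overlap in the Il1a KO, where 2.19% of all rows did so, and 0 lay above, where 2.87% did so (5.06% in either direction). Between the knockouts 2 of 10 (Bag3 and Dnajb1) were lower in the Il1a KO without overlap, where 4.69% of all rows did so, and 0 were higher, where 2.55% did so (7.24% in either direction). Monocyte and macrophage markers (7 of 8 measured) ranged from 9.30 to 9.65 in the Il1a KO and from 9.48 to 9.79 in the Il1b KO. Of these, 5 of 7 were lower in the Il1a KO (median difference -0.244), as were 10498 of 19939 rows. Microglia markers (6 of 7 measured) ranged from 7.84 to 7.98 in the Il1a KO and from 7.71 to 7.80 in the Il1b KO (median difference 0.112). In this list 1 of 6 markers, Gpr34, passed as higher in the Il1a KO (limma adjusted p = 0.0299, background 0.652% of rows). The part of these 2 lists in the Bag3 difference was not tested.

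The mitochondrial chaperonin pair, Hspd1 (HSP60) and Hspe1 (HSP10), is read in opposite directions from a shared promoter on mouse chromosome 1. The 215 bases between an annotated Hspd1 start and the Hspe1 start are shown because they lie upstream of both genes (RefSeq, GRCm38.p6, chr1:55087933-55088147, plus strand, with Hspe1 to the right). Capitals mark 3 overlapping pairs of inverted repeats.
Hspd1 and Hspe1, shared: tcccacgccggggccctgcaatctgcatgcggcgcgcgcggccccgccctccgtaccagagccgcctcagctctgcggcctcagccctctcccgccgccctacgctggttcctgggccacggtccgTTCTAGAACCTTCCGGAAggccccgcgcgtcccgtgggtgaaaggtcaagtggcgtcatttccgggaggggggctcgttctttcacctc
Their overlap forms 2 overlapping triple repeats (GAANNTTC followed by NNGAA, or TTCNNGAA followed by NNTTC, searched on both strands), a run found in 0.466% of the 32851 upstream windows of 250 bases in the RefSeq table, while a pair was found in 12.8%. Of the 8 members with such a window, 5 held a pair in at least 1 window (6 of 11 windows) and 2, this chaperonin pair, a triple. Both of these triples lie in the same shared bases, and the Hspa1a and Hspa1b windows are near copies, so the 5 are not independent sequences. The windows of Dnajb1, Hspa4 and Bag3 held neither, which says only that these letters are not in these windows.

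The 2 genes were not shown to vary together over the 12 arrays (Pearson r = 0.41, permutation p = 0.131, adjusted 0.131; Spearman rho = 0.21, permutation p = 0.514, adjusted 0.514; r = 0.12 without the 2 arrays farthest from the median). Hspd1 had values of 11.09, 11.08, 11.06 and 11.11 in the Il1a KO, 11.14, 11.15, 11.13 and 11.11 in the Il1b KO, and 11.03, 11.10, 11.31 and 11.18 in C57BL/6 mice. Both knockouts lay inside the wide C57BL/6 range (SD 0.0237 in the Il1a KO and 0.0187 in the Il1b KO, against 0.117 in C57BL/6). The log2 differences were -0.069 in the Il1a KO (limma adjusted p = 0.827) and -0.020 in the Il1b KO (limma adjusted p = 0.905). Its dimmer probe set gave -0.12 and -0.10. RefSeq lists 23 pseudogenes named for Hspd1 and 7 named for Hspe1, and which copies these probe sets detect was not tested. Hspe1 had values of 11.06, 11.02, 11.15 and 11.14 in the Il1a KO, 11.12, 11.12, 11.05 and 11.13 in the Il1b KO, and 10.97, 11.16, 11.13 and 11.12 in C57BL/6 mice. Here too both knockouts lay inside the C57BL/6 range, with log2 differences of -0.0034 and 0.0099 (limma adjusted p = 0.998 and 0.956).

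Among themselves the members varied little and only in part together. Their SD within groups ran from 0.0376 (Bag3) to 0.0751 (the set listed for both HSP70 copies), all below the median of all rows, 0.0841. The members lay at log2 values of 8.75 to 13.24, above the array medians, and no comparison with rows of like brightness was made. From the lowest to the highest of the 12 arrays a member spanned between 1.08-fold (Hspa8) and 1.21-fold (Dnajb1 and Hspd1), against a median of 1.23-fold over all rows. With group means removed, the 45 pairs of members had a median r of 0.10 over the 12 arrays, from 0.83 for Hspa4 with Hspa8 to -0.64 for Hspa1a with Bag3. These values are descriptions, since all members share the same arrays and their normalization. C57BL/6 replicate 1 was low in several members, with Hspa4 at -1.86, Hspa8 at -1.79, Hspd1 at -1.7 and Hspe1 at -2.0 within-group SDs from its group mean, while its Hspa1a was at 0.73. C57BL/6 replicate 3 was high for Hspd1 at 2.18, Hsph1 at 1.67 and Hspa4 at 1.62, and low for Bag3 at -1.05, Dnajb1 at -0.90 and the set listed for both HSP70 copies at -0.72. The genes outside the set most like the members' mean deviation were Mpp5, Itgb8, Chka, Chm and Nbr1 (r 0.962 to 0.941), and the least like were Teddm3, Muc2, Thsd7b, BC016548 and Odf4 (r -0.960 to -0.938).

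**Figure D3:**
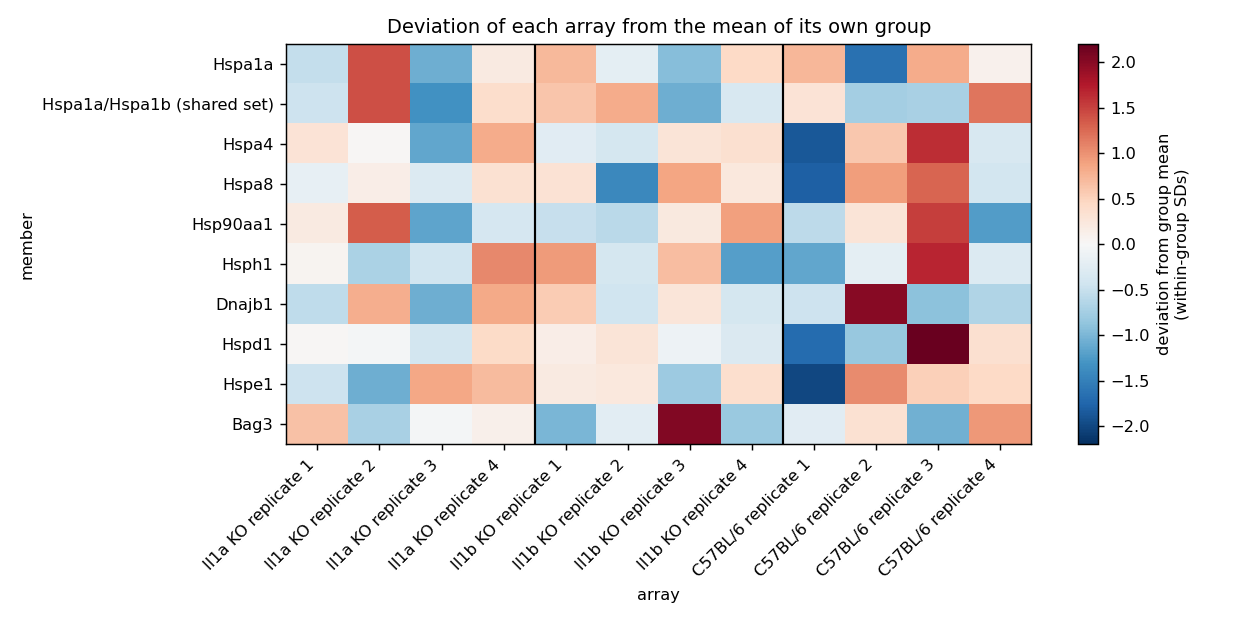
Deviation of each array (x axis) from the mean of its own group for each heat shock chaperone (y axis), in within-group SDs, from low (blue) to high (red). C57BL/6 replicate 1 is low for Hspa4, Hspa8, Hspd1 and Hspe1 (-1.7 to -2.0) and C57BL/6 replicate 3 is high for Hspd1 (2.18).

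Beyond the members, 85 of 89 listed genes of the chaperone network and the wider stress response had values. In the Il1a KO 1 of the 85 fell and 0 rose (background 0.171% of rows), with a median log2 difference of 0.003. It was Atf3, a transcription factor induced by many stresses, at 9.04 ± 0.0702 in the Il1a KO and 9.41 ± 0.0994 in C57BL/6 mice (SD, n = 4), 1.29-fold lower (log2 difference -0.37, limma adjusted p = 0.0272), and it lost the call in 8 of 21 alternative fits (limma adjusted p 0.00179 to 0.123 over all 21). Of these 8, 6 each left out 1 array, which was C57BL/6 replicate 3 or 4, Il1a KO replicate 2, 3 or 4, or Il1b KO replicate 4 (limma adjusted p 0.0526 to 0.123). Beside this difference, all 9 neutrophil markers had a negative difference in the Il1a KO (median -0.35), with list means of 7.35 to 7.73 in the Il1a KO and 7.71 to 8.06 in C57BL/6 mice. Of the monocyte and macrophage markers 6 of 7 had a negative difference (median -0.19), with means of 9.30 to 9.65 in the Il1a KO and 9.59 to 9.91 in C57BL/6 mice. All 7 oligodendrocyte markers had a positive difference (median 0.172), with means of 11.56 to 11.74 in the Il1a KO and 11.38 to 11.53 in C57BL/6 mice. Skeletal muscle markers had a negative difference as well, 8 of 8 (median -0.181). Their list means were highest on C57BL/6 replicates 1 and 3 (7.31 and 7.43). In the same comparison 9929 of 19939 rows had a negative difference. The part of these lists in the Atf3 difference was not tested. In the Il1b KO 0 of 85 passed by limma (11 at an unadjusted p under 0.05, against 13% of all rows). Atf3 averaged 9.30 ± 0.0955 in the Il1b KO, also below C57BL/6 (log2 difference -0.11, limma adjusted p = 0.472). The median of the 85 in the Il1b KO was 0.032, with 62 of 85 at a positive difference, while 10358 of 19939 rows were positive. These sign counts, and those of the lists below, are from the main fit alone. With quantile normalization again, Hspa4l was at 0.094 (0.13 in the main fit), Stip1 at 0.13 (0.15) and Fkbp5 at -0.27 (-0.24). With median centring these genes were at 0.14, 0.16 and -0.23. The part of the normalization in the sign counts was not tested. Apart from Atf3 among the stress-inducible genes, 0 genes of the 9 lists passed in either knockout. Between the knockouts 0 of 85 passed (13 at an unadjusted p under 0.05, against 7.79% of all rows), and Atf3 differed by -0.26 (limma adjusted p = 0.0998). The median of the 85 in that comparison was -0.034, with 58 of 85 negative, against 10498 of 19939 rows. Without overlap, 11 of 85 were lower in the Il1a KO (4.69% of all rows) and 2 were higher (2.55%).

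Co-chaperones bind HSP70 and HSP90 and hand clients between them. Among them 15 of 17 had, in the Il1b KO, a positive log2 difference (median 0.072, against 0.004 and 10358 of 19939 positive over all rows). None passed the test (0 of 17, background 0.812%), and 5 were under 0.05 before adjustment by limma (background 13%). Stip1, which bridges HSP70 and HSP90, had log2 values of 11.34 to 11.50 in the Il1b KO and 11.21 to 11.31 in C57BL/6 mice (difference 0.15, limma adjusted p = 0.154). It passed in 2 of 21 alternative fits. St13, the HSP70-interacting protein Hip, had values of 10.59 to 10.63 in the Il1b KO and 10.39 to 10.53 in C57BL/6 mice (0.14, limma adjusted p = 0.16). For both genes the Il1b KO arrays lay above all C57BL/6 arrays, as for 3 of 17 co-chaperones and 5.06% of all rows. Bag4 differed by 0.075 in the Il1a KO and 0.092 in the Il1b KO (limma adjusted p = 0.634 and 0.312). Fkbp5, a glucocorticoid-induced partner of HSP90, was in the other direction, at -0.23 in the Il1a KO and -0.24 in the Il1b KO (limma adjusted p = 0.369 and 0.188), and its groups overlapped.

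Small heat shock proteins keep unfolded proteins from clumping without using ATP. Hspb1 (HSP27), prominent in reactive astrocytes and injured motor neurons, had values of 12.84 to 13.24 in the Il1a KO and 13.22 to 13.39 in C57BL/6 mice (log2 difference -0.21, limma adjusted p = 0.406). Hspb8, the partner of Bag3, differed by -0.10 in the Il1a KO and 0.11 in the Il1b KO (limma adjusted p = 0.763 and 0.495), and by -0.21 between the Il1a KO and the Il1b KO (limma adjusted p = 0.309). Cryab, an oligodendrocyte and astrocyte chaperone, differed by 0.081 and 0.10 (limma adjusted p = 0.628 and 0.327). The list medians were -0.037 in the Il1a KO and -0.060 in the Il1b KO, with 0 of 7 past the test in each.

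Other J-domain proteins had medians of 0.024 in the Il1a KO and 0.026 in the Il1b KO over 17 genes. Dnajb6, which suppresses protein aggregation, had values of 7.28 to 7.45 in the Il1a KO and 7.08 to 7.28 in C57BL/6 mice (log2 difference 0.19, limma adjusted p = 0.306), and Dnajc3, an endoplasmic reticulum co-chaperone, differed by -0.11 (limma adjusted p = 0.465). Among other HSP70 and HSP110 genes (medians 0.012 in each knockout), Hspa4l, a further HSP110, had values of 10.75 to 10.86 in the Il1b KO and 10.63 to 10.74 in C57BL/6 mice (0.13, limma adjusted p = 0.208). The TRiC/CCT chaperonin and prefoldin, which fold actin and tubulin, had medians of 0.007 and 0.032 over 14 genes, with Pfdn6 at 0.076 in the Il1a KO and 0.13 in the Il1b KO (limma adjusted p = 0.713 and 0.227) and Cct6a at -0.12 in the Il1b KO (limma adjusted p = 0.292). Mitochondrial quality control genes had medians of 0.002 and 0.057 over 8 genes, with Yme1l1 at 0.066 and 0.073 (limma adjusted p = 0.873 and 0.642). Of the heat shock factors and their regulators, Hsbp1, which binds heat shock factor 1, differed by 0.079 in the Il1a KO (limma adjusted p = 0.634) and Hsf5 by -0.17 in the Il1b KO (limma adjusted p = 0.26), and Hsf1 itself was not analysed here.

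None of the further genes of these lists passed the test in either knockout. In the endoplasmic reticulum, Hspa5 (BiP) differed by -0.015 in the Il1a KO and 0.075 in the Il1b KO (limma adjusted p = 0.981 and 0.478), Hyou1 by -0.022 and 0.094 (0.977 and 0.444) and Hsp90b1 (GRP94) by -0.029 and 0.020 (0.95 and 0.889). In mitochondria, Hspa9 (mortalin) differed by -0.040 and -0.031 (limma adjusted p = 0.864 and 0.753), the HSP90 protein Trap1 by -0.031 and -0.0045 (0.927 and 0.976), Grpel1, Hspa9's exchange factor, by 0.045 and 0.024 (0.911 and 0.875), the disaggregase Clpb by -0.036 and 0.070 (0.913 and 0.484) and the protease Lonp1 by 0.020 and 0.085 (0.981 and 0.531). Of J-domain proteins, Dnajb2 differed by 0.028 and 0.10 (limma adjusted p = 0.965 and 0.424), Dnajb5 by -0.035 and 0.064 (0.917 and 0.54) and Dnajc5, a synaptic vesicle protein, by 0.0021 and 0.025 (0.999 and 0.803). The HSP90 co-chaperone Ptges3 (p23) differed by 0.026 and 0.072 (limma adjusted p = 0.965 and 0.559), the chaperonin subunits Cct2 by -0.024 and -0.016 (0.959 and 0.9) and Cct3 by -0.055 and 0.0069 (0.807 and 0.962), and Hsf4 by 0.064 and 0.049 (0.898 and 0.796). The stress-inducible list of 6 genes, Atf3 included, had negative differences throughout in the Il1a KO (median -0.094), with Jun at -0.15 and Egr1 at -0.062 (limma adjusted p = 0.564 and 0.911), while 3 of 6 were positive in the Il1b KO (median 0.029), where Egr1 was at 0.16 and Jun at -0.10 (0.344 and 0.579). Hmox1, the heme-degrading enzyme induced by oxidative stress, differed by -0.029 and -0.037 (limma adjusted p = 0.987 and 0.901).

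**Figure D4:**
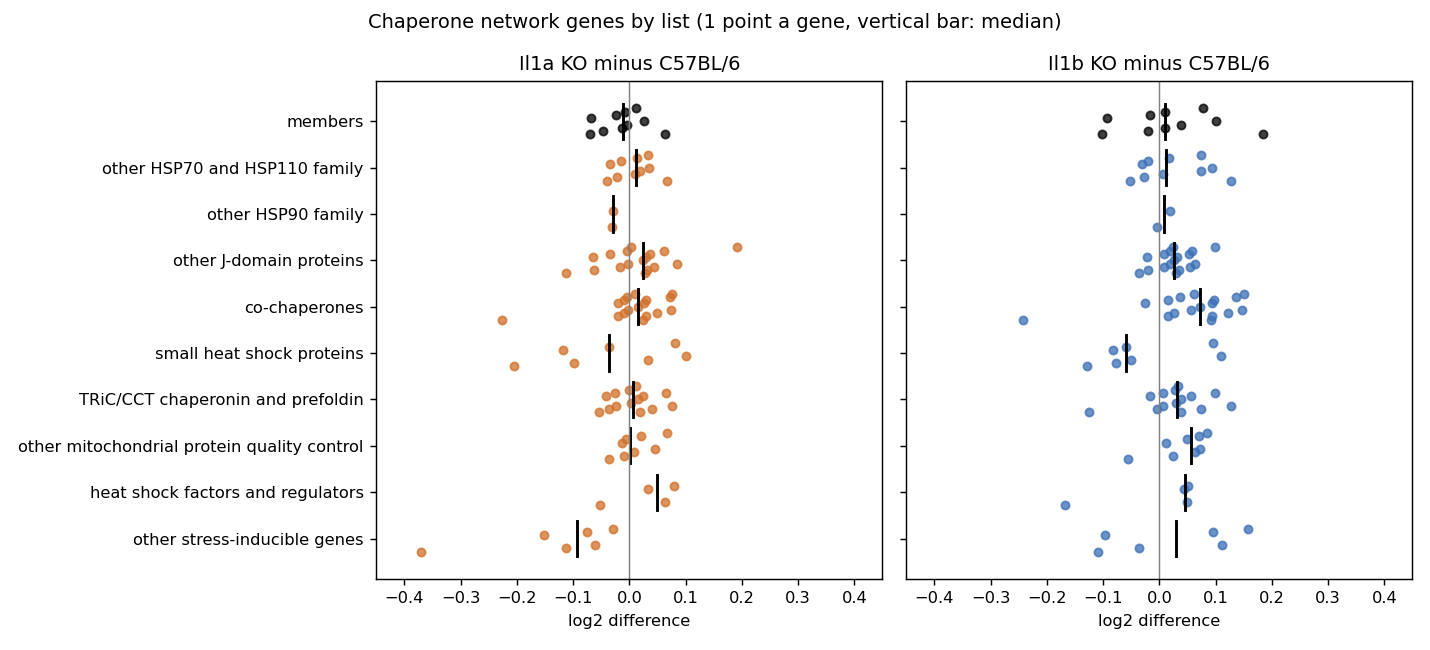
Log2 differences (x axis) of the 10 heat shock chaperone rows and of 85 other chaperone and stress genes by list (y axis), for the Il1a KO and the Il1b KO against C57BL/6; each point is a gene and the vertical bar is the list's median. The members centre near 0 (medians -0.011 and 0.010), Atf3 (-0.37) lies farthest out in the Il1a KO, and co-chaperones have a median of 0.072 in the Il1b KO.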

How the data were processed

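Whole-transcript arrays of injured mouse spinal cord, 12 in all, were analysed from log2 values deposited for each probe set. The tools GCOS 1.4, RMA, Partek and limma are listed, without their roles, per the submitters' processing notes. The array medians (7.67 to 7.72) were near equal, and the values were taken to be RMA summaries. RMA equalises the arrays, so a shift in total RNA would not show. No build is named for the annotation. Among 35557 probe sets, 21789 were listed with 1 gene symbol, and 1621 with several were left out except the set listed for both Hspa1a and Hspa1b. The brightest set stood for each of 19938 genes. Symbols were updated from RefSeq (GRCm38.p6), which matched 19856 genes.

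Differences were tested in R 4.3.3 by limma 3.58.1 (1 mean per group over all 12 arrays, moderated statistics, two-sided, Benjamini-Hochberg adjustment over 19939 rows, threshold 0.05), which was tested on simulated data. Differences are the first named group minus the other. Depth has no counterpart on arrays, and the number of arrays limits the precision. The members and lists were chosen with earlier results of these data known. Named were the 10 members, Il1a, Il1b, network genes past the threshold, the 2 of each list with the smallest p in either knockout against C57BL/6, each list's brightest gene, and the 5 most and 5 least like the members; the marker lists shown, the Hspb8 contrast between knockouts and the 2 correlated pairs were chosen after values were seen. Alternatives were another normalization, a filter on dim genes, averaged probe sets, another variance prior, array weights, a replicate block, the compared groups alone and each array left out.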

Additional observations from a re-analysis of the deposited data

Results flagged for a closer look

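Of 30 groups of 4 arrays examined for a value far from the rest, 2 held one, and chance gives about 1 in 20. Dnajb1 on C57BL/6 replicate 2 was 8.94 on the log2 scale, against 8.75 to 8.78 on the other C57BL/6 arrays. Hspe1 on Il1b KO replicate 3 was 11.05, against 11.12 to 11.13 on the other Il1b KO arrays. Bag3 had all 4 Il1a KO arrays below the C57BL/6 mean and all 4 Il1b KO arrays above it. Neither knockout passed against C57BL/6 (limma adjusted p = 0.687 and 0.706). The Il1b KO difference of 0.039 was 0.009 with quantile normalization again and 0.004 with array weights. The share of all rows with this pattern is not given here. The difference between the knockouts, Il1a KO minus Il1b KO, was -0.11 and did not pass over all rows (limma adjusted p = 0.412).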

How the results depend on the processing

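Over 21 alternatives, 30 differences of members gave 630 values. Of these 596 kept their direction and their side of the threshold, 2 passed it (both Dnajb1 in the Il1b KO, given in the report) and 32 changed sign, all for differences of at most 0.023 in size. Sign changes with all arrays kept were those of Hspa8 in the Il1a KO (0.021 with quantile normalization again, 0.003 with median centring, 0.00044 with array weights), of Hspe1 in the Il1a KO (0.008 with median centring, 0.00015 with averaged probe sets) and of Hspe1 in the Il1b KO (-0.004 with quantile normalization, -0.003 with array weights). The cause was not tested. With 1 array left out, the ranges in the Il1a KO were -0.057 to -0.001 for Hspa1a, -0.036 to 0.008 for Hspa4, -0.031 to 0.008 for Hspa8, -0.009 to 0.041 for Hsph1 and -0.046 to 0.020 for Hspe1. In the Il1b KO they were -0.040 to 0.004 for Hspa4, -0.013 to 0.028 for Hspa8, -0.059 to 0.031 for Hspd1 and -0.033 to 0.032 for Hspe1. Between the knockouts they were -0.007 to 0.018 for Hspa4 and -0.032 to 0.010 for Hspe1. Without both Il1a KO replicate 1 and C57BL/6 replicate 1, Hspa1a changed sign in the Il1a KO (0.002), as did Hsph1 (-0.010), while Hspa4 was at -0.040; Hspa8 (-0.013) and Hspe1 (-0.033) changed sign in the Il1b KO and Hspa4 (-0.00011) between the knockouts. The members' median in the Il1b KO ranged from -0.023 (without C57BL/6 replicate 1, also when Il1a KO replicate 1 was left out with it, a choice made after seeing the data) to 0.027. With an array left out, 0 to 1 members passed in the Il1b KO, and 1 with array weights.

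Counts over all rows moved more. In the Il1a KO, 34 rows passed, against 74 with a trended robust prior, 306 with array weights, 15 with the compared groups alone and 18 to 49 with an array left out (18 without C57BL/6 replicate 4, 19 without Il1a KO replicate 3 or replicate 4). In the Il1b KO, 162 passed, against 309, 1145, 85 and 106 to 177 (106 without C57BL/6 replicate 4, 107 without Il1b KO replicate 1). Between the knockouts 130 passed, against 244 with array weights. Of the 85 network genes in the Il1a KO, 1 passed (Atf3), against 2 with array weights, 0 with the compared groups alone, 0 with the replicate block and 0 to 1 with an array left out (0 without C57BL/6 replicate 3 or 4, Il1a KO replicate 2, 3 or 4, or Il1b KO replicate 4). In the Il1b KO 0 passed, against 1 with the trended prior and 3 with array weights, and between the knockouts 0, against 1 with each of these. In the labels, same-numbered arrays shared only a number. The correlations of their deviations ran from -0.374 to 0.441 over 12 pairs. Both of these extremes were between the Il1b KO and C57BL/6, for replicates 2 and 3. Whether same-numbered arrays were handled together was not tested. The replicate block left 26 rows in the Il1a KO and 120 in the Il1b KO.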
